A study of Mus musculus with 16 samples.

Results

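The genes that mark T cells and cytotoxic lymphocytes were examined in mouse liver, as 10 symbols chosen by name: the CD3 chains Cd3d, Cd3e and Cd3g, the coreceptors Cd4, Cd8a and Cd8b1, the kinase Lck, the granzymes Gzma and Gzmb, and Nkg7. For 9 of the 10 a row carried the symbol in the platform annotation, out of 19505 genes in all, and Lck was not analysed here. The 16 liver samples were from C57BL/6 mice on 1-colour Affymetrix-type arrays, 8 from livers with modelled nonalcoholic steatohepatitis (NASH, fatty liver with inflammation) and 8 from control livers. How the model was induced, and the age and sex of the mice, are not given in the sources used here. The title of the study concerns the stimulation of soluble guanylate cyclase, but no treated group is among these samples, and the comparison is between NASH model and control livers. Samples are called by the number in their labels, which gives 1a and 1b and 2 to 7 in the NASH model group and 1, 3 to 7, 9 and 10 in the control group. The labels do not tie samples to separate mice, and the p-values therefore rest on the spread among samples, which may be technical.

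The T cell receptor recognises a peptide held by an MHC molecule and passes the signal on through the CD3 chains, which carry no antigen specificity of their own. CD4 binds MHC class II and marks helper and regulatory T cells, while CD8, a dimer of alpha and beta chains, binds MHC class I and marks killer T cells; both coreceptors bring the kinase Lck to the receptor. Granzymes are serine proteases of the granules that killer T cells and natural killer (NK) cells release onto a target cell, and Nkg7 is a membrane protein of the same granules. In mice CD4 is also found on subsets of dendritic cells and tissue macrophages, and CD8 alpha on a subset of dendritic cells.

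Values are log2 levels after quantile normalization, and a fold change is the mean of the NASH model samples minus the mean of the control samples. A gene was called when its adjusted p was under 0.05 in limma's moderated test, adjusted by the Benjamini-Hochberg method over all 19505 genes. A background floor of 2.89 on the log2 scale was taken from 1412 olfactory and vomeronasal receptor genes, 95% of whose values lie below it. Hepatocyte genes marked both groups as liver: the mean level of 8 of them ran from 11.7 to 11.9 in NASH model samples and from 11.7 to 11.9 in control samples, and none was called, although up to 2 were called under other scalings.

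Cd3e, Cd8a, Cd8b1 and Nkg7 rose in the NASH model livers, Cd4 fell, and Cd3d, Cd3g, Gzma and Gzmb did not pass the test. Thus 4 of the 9 genes were called higher and 1 lower, where 13.2% of all genes were called higher, 13.4% lower and 26.6% in either direction. The median fold change of the 9 genes was 0.41 on the log2 scale, against -0.04 over all genes. All 9 were dim: their mean levels over the 16 samples ran from 2.60 for Gzmb to 4.11 for Cd4. Of the 4359 genes within that range of mean levels, 13.5% were called higher and 7.25% lower, with a median of -0.03. The groups overlapped for every one of the 9, while for 9.54% of all genes they did not (5.65% with the NASH model higher and 3.89% with it lower). None of the 9 lay below the floor in all 16 samples, as 19.6% of all genes did. The balance of calls depended on the scaling, since higher genes made up 49.6% of all calls in the main analysis, 39.2% with arrays centred on their medians and 73.7% with the deposited values set to their spike-in controls. The last of these moved the median of all genes to 0.06, yet the 5 called members kept their direction and their call under each of the 4 other scalings. In bulk liver RNA, fewer cells of a type and less RNA per cell cannot be told apart.

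**Figure D1:**
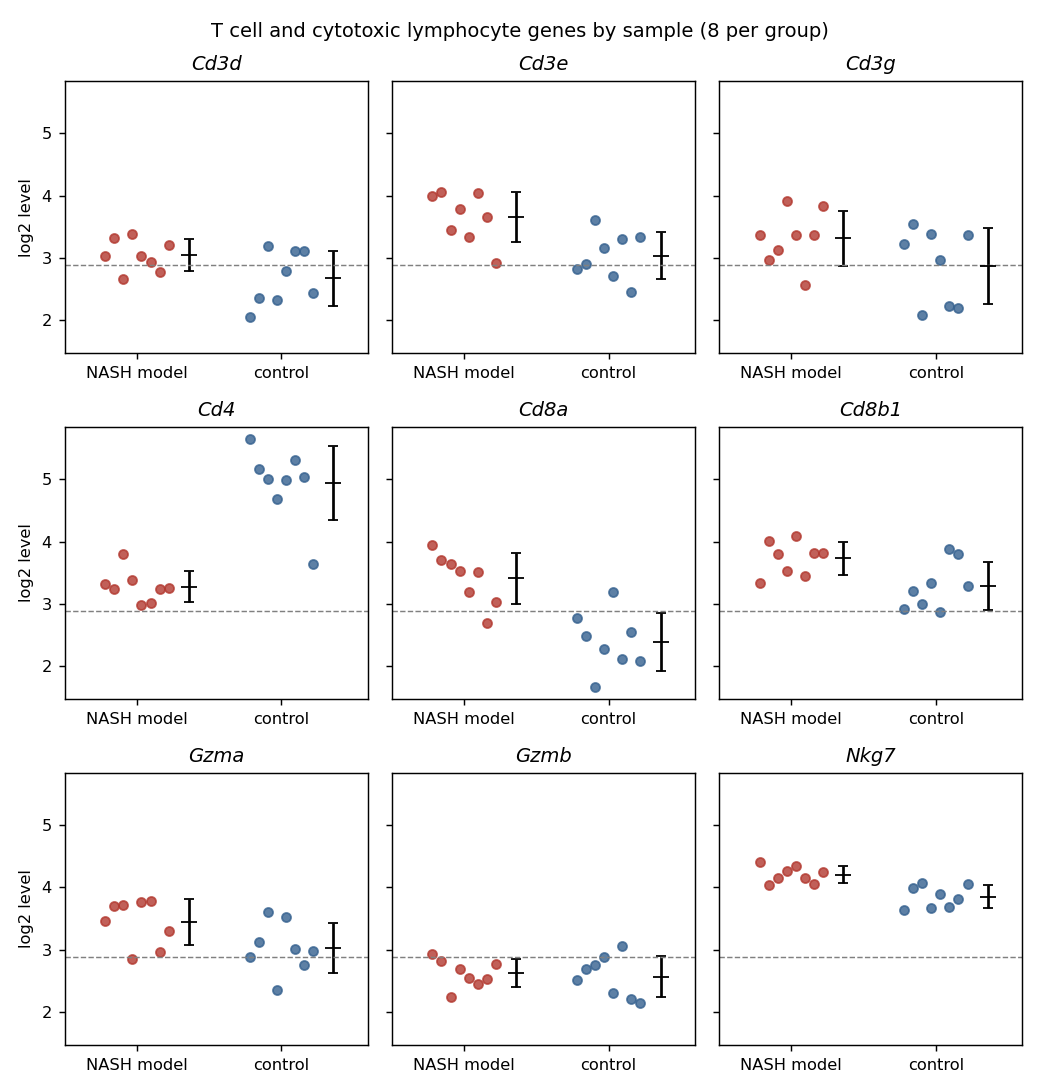
The log2 level of the 9 measured genes in each sample, with NASH model samples on the left and control samples on the right of each panel; bars give the mean and SD of 8 samples and the dashed line the background floor of 2.89. Cd4 is the only panel in which the NASH model samples sit lower, and control 10 is the one control near them.

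The CD3 chains, which are needed for any T cell receptor to reach the cell surface, stood close to the floor. Cd3e ran from 2.92 to 4.07 with a median of 3.72 in NASH model samples, and from 2.46 to 3.61 with a median of 3.04 in control samples. All 8 NASH model samples but 5 of the 8 controls lay above the floor, and 5 NASH model samples lay above every control. Its mean was 3.66 ± 0.41 in NASH model samples and 3.04 ± 0.38 in control samples (SD, n = 8 each), a log2 fold change of 0.62 ± 0.18 SE (limma, adjusted p = 0.014), and it was called when any 1 sample was left out. With the clock score, a summary of 17 clock genes, as a covariate the log2 fold change was 0.29 ± 0.25 SE and did not pass (limma, adjusted p = 0.52). That score was higher in every control except control 5 than in any NASH model sample, so it is hard to separate from the group.

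Cd3d ran from 2.67 to 3.39 with a median of 3.03 in NASH model samples, and from 2.06 to 3.20 with a median of 2.62 in control samples. The difference of 0.37 ± 0.17 did not pass (limma, adjusted p = 0.11), with a 95% interval of 0.02 to 0.71. Cd3g, at 2.57 to 3.92 with a median of 3.37 in NASH model samples and 2.09 to 3.55 with a median of 3.10 in control samples, differed by 0.44 ± 0.24 and did not pass either (limma, adjusted p = 0.19; interval -0.05 to 0.93). The controls were split for Cd3g, with control 4, 7 and 9 below the floor at 2.09 to 2.23 and the other 5 at 2.96 to 3.55. The same 3 controls had the highest Cd3d among controls. The mean of the 3 chains ran from 3.08 to 3.70 in NASH model samples and from 2.59 to 3.05 in control samples, so that every NASH model sample lay above every control. The gap was narrow, between NASH model 2 at 3.08 and control 10 at 3.05. None of the 3 chains separated the groups alone. Of single genes, 5.65% had such a separation with the NASH model higher, but a mean of 3 genes tends to vary less. That share is therefore not a matched background for the mean.

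Cd8a, the alpha chain of CD8, had the largest rise of the 9 genes. It ran from 2.69 to 3.95 with a median of 3.52 in NASH model samples, and from 1.67 to 3.20 with a median of 2.38 in control samples. Only control 6 lay above the floor, so most controls were at background, while 7 of 8 NASH model samples lay above it and 6 lay above every control. Its mean was 3.41 ± 0.41 in NASH model samples and 2.39 ± 0.47 in control samples (SD, n = 8 each), a log2 fold change of 1.02 ± 0.20 SE (limma, adjusted p = 6.1e-04). With 7 controls below the floor, the 2.02-fold difference is uncertain in size.

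Cd8b1, the beta chain of CD8, rose less firmly. It ran from 3.34 to 4.10 with a median of 3.81 in NASH model samples, and from 2.87 to 3.88 with a median of 3.25 in control samples, so that 2 NASH model samples lay above every control. The log2 fold change was 0.45 ± 0.15 SE (limma, adjusted p = 0.039). The call held in 5 of 16 analyses that left out 1 sample. It was lost without control 1, 3, 4, 5, 6 or 10 and without NASH model 1b, 2, 4, 6 or 7, with log2 fold changes of 0.39 to 0.45 and adjusted p from 0.050 to 0.079. It was also lost without NASH model 2 and 7 together (0.42 ± 0.18, limma, adjusted p = 0.10).

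Cd4 fell, and it was the brightest of the 9 genes in control livers. It ran from 2.99 to 3.80 with a median of 3.25 in NASH model samples, and from 3.64 to 5.64 with a median of 5.02 in control samples. The 8 NASH model samples lay just above the floor, and 7 of them lay below every control. Control 10 stood at 3.64, while the other 7 controls ran from 4.69 to 5.64, and NASH model 2 at 3.80 was the one sample that overlapped with it. The means were 3.28 ± 0.25 in NASH model samples and 4.93 ± 0.59 in control samples (SD, n = 8 each), a log2 fold change of -1.66 ± 0.20 SE (limma, adjusted p = 4.2e-06). Without control 10 the groups did not overlap and the log2 fold change was -1.84.

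The coreceptors Cd8a and Cd4 thus changed in opposite directions. The within-sample difference of Cd8a minus Cd4 shifted by 2.67 ± 0.27 SE (exact permutation test over the samples, two-sided, p = 1.6e-04, the smallest that 8 against 8 samples can give, or 6.2e-04 adjusted over 4 such contrasts). That difference ran from -0.55 to 0.63 in NASH model samples and from -3.34 to -1.56 in control samples, so the groups did not overlap. The shift follows from the calls of the 2 genes in the same samples and is no separate support for them. As Cd8a lay above the floor in only 1 of 8 controls, the control values mostly reflect the level of Cd4 over background. The shift of Cd8a minus Cd8b1 was 0.57 ± 0.32 (exact permutation, adjusted p = 0.13), and that of Cd8a minus the mean of the 3 CD3 chains was 0.54 ± 0.25 (exact permutation, adjusted p = 0.093). Neither passed, so a larger rise of Cd8a than of these other T cell genes was not shown.

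**Figure D2:**
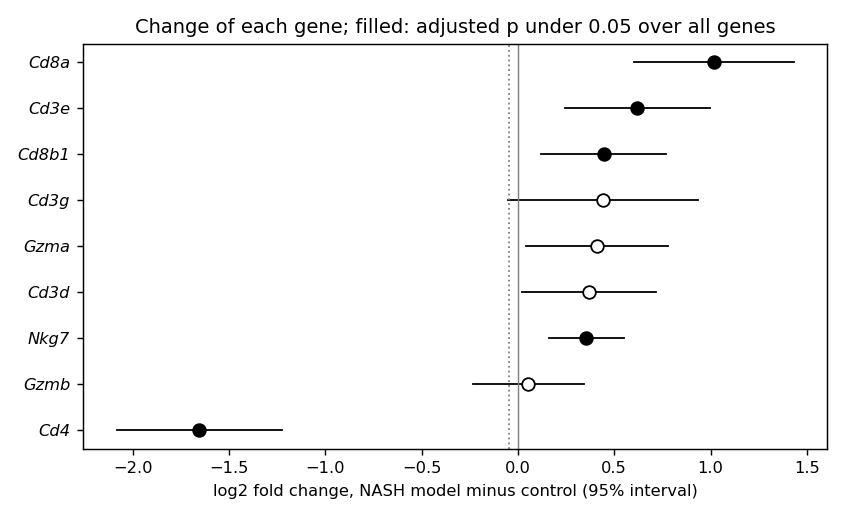
The log2 fold change of each measured gene, NASH model minus control, with its 95% interval; filled points have an adjusted p under 0.05 over all genes, and the dotted line is the median of all genes at -0.04. Cd8a lies highest at 1.02 and Cd4 lowest at -1.66.

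Among the genes of the cytotoxic granule, Nkg7 rose by a small and even amount. It ran from 4.04 to 4.41 with a median of 4.20 in NASH model samples, and from 3.63 to 4.08 with a median of 3.86 in control samples, and 6 NASH model samples lay above every control. The log2 fold change was 0.36 ± 0.09 SE (limma, adjusted p = 0.0065), the smallest standard error of the 9 genes. It did not pass with the clock score as a covariate (0.33 ± 0.14 SE, limma, adjusted p = 0.13).

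Gzma ran from 2.86 to 3.78 with a median of 3.58 in NASH model samples, and from 2.36 to 3.60 with a median of 2.99 in control samples. Its difference of 0.41 ± 0.18 did not pass (limma, adjusted p = 0.098; interval 0.04 to 0.78). It passed without control 4, the highest control (0.49, adjusted p = 0.042), without NASH model 3, the lowest NASH model sample (0.49, adjusted p = 0.044), and with spike-in centring (0.54, adjusted p = 0.044). Gzmb, the granzyme that cleaves caspases, lay above the floor in 1 NASH model sample and 1 control sample, with ranges of 2.24 to 2.94 in NASH model samples and 2.14 to 3.06 in control samples. Its difference was 0.05 ± 0.14 (limma, adjusted p = 0.82; interval -0.23 to 0.34), and at this signal a change of the gene was not detectable. The shift of Gzma minus Gzmb was 0.36 ± 0.26 (exact permutation, adjusted p = 0.19), so the granzymes were not shown to differ.

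The promoter windows of the 3 genes that rose and were matched in the RefSeq table (GRCm38.p6) are shown because these genes share a called direction. Each covers 250 bases before to 50 bases after the start of the gene, and 7 of the 9 measured genes were matched. Capitals mark 3 motifs on either strand: TGTGGT, letters bound by RUNX factors, CAGGAA, bound by ETS factors, and CAGNTG, an E-box bound by E proteins. The Cd8a window is chr6:71373177-71373476 on the plus strand, the Cd3e window chr9:45009562-45009861 on the minus strand and the Nkg7 window chr7:43436888-43437187 on the plus strand.
Cd8a: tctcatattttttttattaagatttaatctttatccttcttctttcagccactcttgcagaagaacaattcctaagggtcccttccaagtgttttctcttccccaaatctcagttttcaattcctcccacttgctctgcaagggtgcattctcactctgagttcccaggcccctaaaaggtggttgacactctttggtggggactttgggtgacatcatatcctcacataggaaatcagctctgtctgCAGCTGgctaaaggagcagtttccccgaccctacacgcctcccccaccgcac
Cd3e: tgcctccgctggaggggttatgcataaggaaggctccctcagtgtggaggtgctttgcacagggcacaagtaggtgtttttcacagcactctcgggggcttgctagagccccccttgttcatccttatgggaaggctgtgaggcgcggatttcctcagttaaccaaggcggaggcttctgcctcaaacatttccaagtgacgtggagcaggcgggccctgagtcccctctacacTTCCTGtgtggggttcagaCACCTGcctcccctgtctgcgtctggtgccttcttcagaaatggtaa
Nkg7: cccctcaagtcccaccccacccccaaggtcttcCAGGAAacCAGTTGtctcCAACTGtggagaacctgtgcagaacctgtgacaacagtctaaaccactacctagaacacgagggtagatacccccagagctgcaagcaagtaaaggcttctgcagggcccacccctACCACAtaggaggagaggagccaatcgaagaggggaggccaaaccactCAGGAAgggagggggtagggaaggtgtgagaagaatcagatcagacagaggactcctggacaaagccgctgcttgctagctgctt
The capitals did not overlap one another in these windows. The Cd8a window held 1 CAGNTG match and no match of the other motifs, the Cd3e window 1 CAGGAA and 1 CAGNTG match, and the Nkg7 window 1 TGTGGT, 2 CAGGAA and 2 CAGNTG matches. Of 32851 promoter windows of the same length in the table, 16.8% held TGTGGT, 30.6% held CAGGAA and 51.4% held CAGNTG. A match is a description of the letters and no evidence of binding.

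Within the groups the 9 genes were only weakly correlated with one another. With the group means subtracted, the 36 pairs of genes had correlations from -0.52 for Cd3d with Cd3g to 0.38 for Gzma with Nkg7 over the 16 samples, with a median of -0.02, and 18 of them were above 0. No pair was above 0.5. Among 8 relations tested within groups of 8, none passed after adjustment. Cd8a against the mean of the 3 CD3 chains gave Pearson r = 0.27 in NASH model samples (exact permutation, p = 0.52, adjusted 0.83; Spearman rho 0.31, p = 0.46, adjusted 0.57) and r = -0.56 in control samples (exact permutation, p = 0.15, adjusted 0.41; rho -0.81, p = 0.022, adjusted 0.17). Without the 2 samples farthest from the median, r was 0.59 in NASH model samples and -0.68 in control samples.

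Cd4 against the mean of the CD3 chains gave r = -0.07 in NASH model samples (exact permutation, p = 0.87, adjusted 0.99; rho 0.29, p = 0.50, adjusted 0.57) and r = -0.59 in control samples (exact permutation, p = 0.12, adjusted 0.41; rho -0.62, p = 0.12, adjusted 0.31). Without the 2 farthest samples r was 0.79 in NASH model samples, where NASH model 3 and 2 decided the value, and -0.74 in control samples. Gzma against Nkg7 gave r = 0.00 in NASH model samples (exact permutation, p = 0.99, adjusted 0.99; rho -0.07, p = 0.88, adjusted 0.88) and r = 0.64 in control samples (exact permutation, p = 0.092, adjusted 0.41; rho 0.69, p = 0.069, adjusted 0.28). Without the 2 farthest samples these were 0.18 in NASH model samples and 0.52 in control samples.

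Markers of other cells that can carry CD4 moved in the same samples. Of 12 genes of Kupffer cells, the resident macrophages of the liver, 6 fell and 1 rose, with a median of -0.47. Over all genes 13.4% were called lower and 13.2% higher. The mean level of the Kupffer genes ran from 5.67 to 6.42 in NASH model samples and from 6.28 to 7.26 in control samples, and none of the 12 was below the floor in all 16 samples. The scavenger receptor Cd163 fell by 2.84 on the log2 scale, the phosphatidylserine receptor Timd4 by 2.0 and the complement component C6 by 1.5. Folr2 was not called lower with spike-in centring or without NASH model 2 and 7, and 3 genes were lower with the clock score as a covariate. In NASH model samples 5 of 8 values of Cd163 and 3 of 8 of Timd4 lay above the floor, so their falls are uncertain in size. The gene that rose was Cd5l (0.65), which was not called with the clock score. A second one rose without control 9 (Id3) or without NASH model 3 (Slc40a1), and these 2, Cd5l and Folr2 were named after their values were seen. Cd4 against the Kupffer mean gave r = -0.07 in NASH model samples (exact permutation, p = 0.85, adjusted 0.99; rho -0.36, p = 0.39, adjusted 0.57) and r = 0.46 in control samples (exact permutation, p = 0.26, adjusted 0.52; rho 0.48, p = 0.24, adjusted 0.49). Without the 2 farthest samples r was -0.08 in NASH model samples and 0.56 in control samples. Control 10, the lowest control for Cd4, was the second lowest for the Kupffer mean at 6.54, above control 5 at 6.28. The part of Kupffer cells in the fall of Cd4 was not tested.

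**Figure D3:**
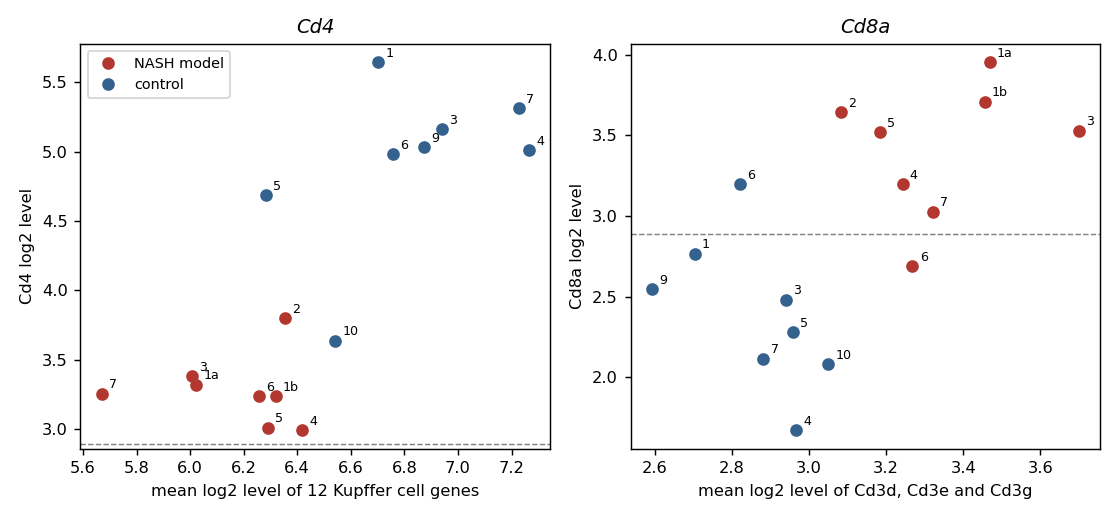
Left, the log2 level of Cd4 against the mean log2 level of 12 Kupffer cell genes; right, the log2 level of Cd8a against the mean of Cd3d, Cd3e and Cd3g. Each point is a numbered sample and the dashed line the floor of 2.89. On the left control 10 lies apart from the other controls at 3.64. On the right every NASH model sample lies above every control in the CD3 mean, by a narrow gap, while Cd8a overlaps.

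Some genes of other blood cell types were called too, and their part in these results was not tested. Apart from the recruited macrophage list these lists have at most 2 called genes in either direction, beside 13.2% of all genes called higher and 13.4% lower. Of 10 genes of recruited macrophages 9 rose and 0 fell, with a median of 2.45 and a mean level of 7.04 to 7.65 in NASH model samples and 3.64 to 4.24 in control samples; they were led by Mmp12 (8.26), Gpnmb (7.51) and Lgals3 (4.08), the first 2 with 4 of 8 controls above the floor. Of 8 conventional dendritic cell genes 2 rose and 0 fell, with a mean level of 3.30 to 3.54 in NASH model samples and 2.94 to 3.39 in control samples. These were Irf8 (0.61), a transcription factor that macrophages also use, and the cytokine receptor Flt3, with a mean of 2.87 in NASH model samples and 2.14 in control samples, which were all below the floor. Xcr1 and Clec9a, which define the dendritic cells that carry CD8 alpha and were named after their values were seen, differed by 0.26 ± 0.13 and 0.27 ± 0.22 and did not pass (limma, adjusted p = 0.16 and 0.42).

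Of 7 plasmacytoid dendritic cell genes 2 rose and 1 fell, with a median of 0.09. Their mean level was 5.25 to 5.49 in NASH model samples and 4.68 to 5.06 in control samples, a shift that rested largely on Ly6d. Ly6d rose by 3.73 and Tcf4 by 0.30, and Bst2, also an interferon-induced gene, fell by 0.65. The defining marker Siglech, named with Ccr9 after their values were seen, differed by 0.08 ± 0.15 and did not pass (limma, adjusted p = 0.77), and Ccr9 lay below the floor in all samples. Bst2 was not called without control 1, 3, 4, 6, 7 or 9 or without NASH model 1a, 1b, 2 or 7 (log2 fold changes over all single omissions from -0.74 to -0.48), and Tcf4 was not called with arrays centred on their medians or without NASH model 2 and 7. Of 9 B and plasma cell genes 2 rose and 0 fell, namely Jchain (0.91) and Cd22 (0.89), with a mean level of 3.06 to 3.35 in NASH model samples and 2.80 to 3.22 in control samples. Jchain was not called without NASH model 2 and 7. Of 5 neutrophil genes Csf3r (1.30) and S100a8 (1.11, with 1 of 8 controls above the floor, so uncertain in size) rose and 0 fell, with a mean level of 3.80 to 4.49 in NASH model samples and 2.85 to 4.58 in control samples; 3 rose without control 4, among them Retnlg, Cxcr2 fell without control 10, and S100a8 was not called without NASH model 2 and 7. Retnlg and Cxcr2 were named after their values were seen.

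Of 21 measured genes of T cell receptor signalling 4 rose and 0 fell, with a median of 0.11, and 17 did not pass, where 13.2% of all genes were called higher. Themis, which tunes receptor signals in developing T cells, ran from 4.99 to 6.94 in NASH model samples and from 2.84 to 4.46 in control samples, with no overlap, and rose by 2.35 ± 0.26 (limma, adjusted p = 8.6e-07). The cells behind the Themis signal were not tested. Ptprc, the phosphatase CD45 that all leukocytes carry, rose by 1.29, and the phosphatase Ptpn22, with 3 of 8 controls above the floor, by 0.89. The adaptor Lcp2, named after its values were seen, was called at the threshold (0.55 ± 0.20, limma, adjusted p = 0.0497). Its call was lost without control 1, 4, 5, 9 or 10 and without NASH model 1a, 1b, 2, 3, 4, 6 or 7, and held in 4 of 16 single omissions. With arrays centred on their medians Sh2d1a, named after its values were seen, was called lower. Among the 17 that did not pass, the receptor zeta chain Cd247 stood at 4.50 in NASH model samples and 4.59 in control samples, the kinase Zap70 at 4.51 in NASH model samples and 4.50 in control samples, and the adaptor Lat at 4.05 in NASH model samples and 4.21 in control samples (means of 8), and these 3 were chosen after their values were seen.

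Of 10 measured transcription factors of T cells, Ikzf1 rose by 0.86 and Zbtb7b fell by 0.84, with a median of -0.03 for the list. Over all genes 13.2% were called higher and 13.4% lower. Zbtb7b, which sets the CD4 fate in T cells, ran from 5.56 to 5.98 in NASH model samples and from 6.40 to 6.86 in control samples, with no overlap (limma, adjusted p = 9.9e-07). Its mean was 5.82 in NASH model and 6.66 in control samples, above that of Cd3e at 3.66 and 3.04. The cells behind the Zbtb7b signal were not tested. Runx3, which sets the CD8 fate and was named after its values were seen, differed by 0.51 ± 0.20 and did not pass (limma, adjusted p = 0.061). It passed without control 1, 7 or 10 or NASH model 5 and under each of the 4 other scalings, so that 2 genes of the list were then higher.

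Of 16 genes of cytotoxic granules and their release 5 rose and 0 fell, with a median of 0.21. Among all genes 13.2% were called higher. The granule proteoglycan Srgn, also a gene of macrophages and mast cells, rose by 0.77, the granzyme B inhibitor Serpinb9 by 0.66 and the vesicle fusion protein Stxbp2 by 0.52. The other 2, named after their values were seen, were the cathepsin Ctsw (0.44), which was not called without NASH model 3, and the syntaxin Stx11 (0.51), which was not called without NASH model 2 and 7. With arrays centred on their medians Ctsc, named likewise, was called lower, and with the clock score 2 genes of the list were higher. The list mean ran from 4.08 to 4.30 in NASH model samples and from 3.75 to 4.08 in control samples. Some genes of the list were at background: Prf1, which encodes the pore-forming perforin, Fasl, Gzmk and Ifng lay below the floor in all 16 samples. The granzyme Gzmm lay above it in all 16.

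Of 16 NK cell genes 1 rose and 0 fell, with a median of 0.19, and 6 lay below the floor in all samples. Among all genes 13.2% were called higher. The NK cell gene that rose was the lectin receptor Klrd1, with a mean of 2.77 in NASH model samples and 1.88 in control samples (limma, adjusted p = 1.4e-04). The groups did not overlap, but all controls and 6 of 8 NASH model samples lay below the floor, so no fold is given. A second gene was called without control 1 or NASH model 1a (Ncr1), without control 4 or 7 (Cd160) and without NASH model 5 (Cd96), genes named after their values were seen. Ncr1, the defining NK receptor, lay above the floor in 1 NASH model sample and no control.

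Of 15 activation and checkpoint genes 6 rose and 0 fell, with a median of 0.22, where 13.2% of all genes were called higher. Cd44, an adhesion receptor of activated T cells and of many other cells, rose by 1.99, the transcription factor Tox by 1.20 and Havcr2, the receptor TIM-3 of exhausted T cells and of myeloid cells, by 1.04. Each of these 3 had groups that did not overlap, as did 5.65% of all genes with the NASH model higher. Which cells gave the Tox signal was not tested. Of the 6 genes, 4 were called without NASH model 2 and 7. The checkpoint receptor Lag3 (0.55) and the activation marker Cd69 (0.41) were also called higher (limma, adjusted p = 0.011 and 0.022). Both were named after their values were seen. Lag3 lay above the floor in 3 NASH model samples and 1 control, and Cd69 in 2 NASH model samples and 0 controls, so both rises are uncertain in size. Neither was called without NASH model 2 and 7, with the replicate number as a block or with the clock score. Cd69 was not called with arrays centred on their medians either. The checkpoint receptors Ctla4 and Tigit and the interleukin-2 receptor chain Il2ra lay below the floor in all samples. Pdcd1, chosen after its values were seen, stood at 2.72 ± 0.34 in NASH model samples and 2.51 ± 0.41 in control samples (SD, n = 8 each; limma, adjusted p = 0.42).

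Among genes that attract and sustain T cells, of 17 measured genes 9 rose and 2 fell, with a median of 0.51. Over all genes 13.2% were called higher and 13.4% lower. Il7r, the receptor for the T cell survival factor interleukin-7, ran from 4.26 to 5.95 in NASH model samples and from 1.6 to 3.70 in control samples, with no overlap, and rose by 2.81 ± 0.30 (limma, adjusted p = 5.6e-07). With 2 of 8 controls above the floor, the size of that rise is uncertain, and the cells behind it were not tested. The chemokine Ccl3 rose by 2.29, while S1pr1, the receptor with which lymphocytes leave tissues and which endothelial cells also carry, fell by 1.55. Chosen after their values were seen, the chemokines Cxcl16 (1.48) and Cxcl10 (1.53) rose without overlap of the groups, whereas the receptors Cxcr6 (0.39 ± 0.21) and Cxcr3 (-0.01 ± 0.12) did not pass (limma, adjusted p = 0.20 and 0.95). Il15 and Il15ra, also chosen after their values were seen, were called weakly: Il15 (0.51) held in 6 of 16 single omissions, and Il15ra (-0.41) was not called with the clock score, which left 1 lower gene.

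**Figure D4:**
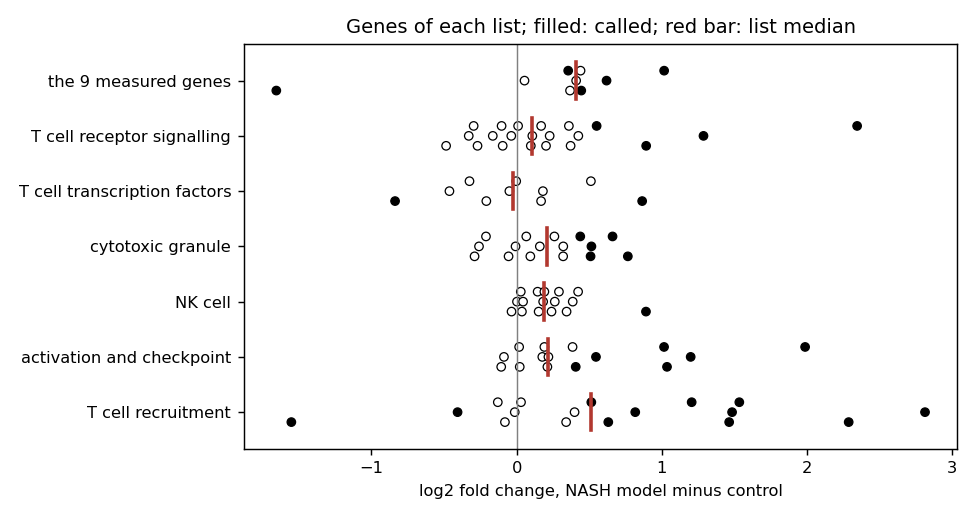
The log2 fold change, NASH model minus control, of each gene of 7 lists; filled points are called at an adjusted p under 0.05 over all genes and the red bar is the median of the list. Of the NK cell genes 1 of 16 is called and of the granule genes 5 of 16, while the recruitment list spreads from -1.55 to 2.81. Of all genes 26.6% are called.

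The genes whose levels followed Cd4 most closely were sought among 12322 named genes with a mean above the floor. The measured members were left out. Genes were ranked by Pearson r over the 16 samples with the group means subtracted. The 5 highest were the ribonuclease Rnase2a (0.89), Snx8 (0.86), the chaperone Hsp90aa1 (0.86), the spermidine synthase Srm (0.85) and the signal peptidase subunit Sec11a (0.83). Control 10 held up much of this likeness, as without it the values were 0.67 for Rnase2a, 0.58 for Snx8, 0.80 for Hsp90aa1, 0.71 for Srm and 0.46 for Sec11a. Rnase2a had the same order of groups as Cd4: it ran from 1.80 to 2.74 in NASH model samples, all below the floor, and from 2.57 to 5.87 in control samples, where control 10 was the lowest at 2.57. Snx8 went the other way between the groups, higher by 0.75 in the NASH model.

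For Cd8a the 5 highest were Prss2 (0.82), Fndc7 (0.77), Dip2a (0.76), Egln1 (0.75) and Olfr1195 (0.74). For the mean of the CD3 chains they were Cacnb1 (0.75), Psme2b (0.73), Zcrb1 (0.73), Robo2 (0.73) and Aar2 (0.72). Olfr1195 is an olfactory receptor, from the set of genes that gave the background floor. Its means were 4.06 in NASH model and 4.37 in control samples, above those of Cd8a at 3.41 and 2.39. Neither set held a gene of the T cell, NK cell or granule lists. The members, and list genes with a mean below the floor, were not ranked, so this absence was partly fixed beforehand. The lowest value after leaving out 1 sample was 0.62 for Olfr1195 among the first 5 genes, without control 6, and 0.62 for Robo2 among the second 5, without NASH model 3.

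**Figure D5:**
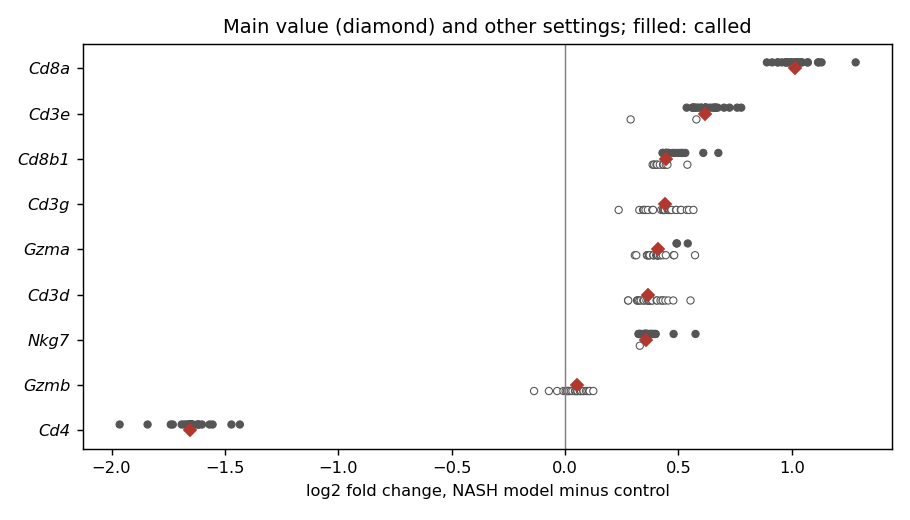
The log2 fold change of each measured gene, NASH model minus control, in the main analysis (diamond) and under each other setting, with called values filled and drawn above those not called. Cd4 lies between -1.96 and -1.43 and Cd8a between 0.89 and 1.28 in every setting that tested them, whereas Gzmb lies on both sides of 0.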

How the data were processed

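Liver RNA of 8 NASH model and 8 control samples was measured on 1-colour arrays; per the labels' protocols, RNA was extracted with TRIzol and labelled in the usual Affymetrix way. The authors deposited log2 levels of 29129 probe sets; the steps behind them are not given here, as no source used states them. Of the probe sets, 19572 had 1 gene symbol, 0 had several and 9557 had none listed. The column medians ran from 3.52 to 3.66, and as they differed by more than 0.1, quantile normalization was applied, which changed no value by more than 0.16. For each gene the probe set with the highest mean was used, and limma 3.58.1 in R 4.3.3 (lmFit and eBayes, two-sided) compared the groups over 19505 genes. The fit was tested on simulated data. Exact permutation tests enumerated all arrangements, in R for the members and contrasts and in Python for the correlations. SciPy 1.17.1 gave the ranks and the adjustment for the correlations.

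The genes, gene lists and tests were chosen with earlier results of these data known. Named are all 9 measured members, the 3 called genes of largest change in each list, and the 5 genes most like Cd4, Cd8a and the CD3 mean; any other gene, such as those below the floor in all samples, was chosen after its values were seen. NASH model 1a and 1b differed by an SD of 0.387 over genes, within the 0.340 to 0.466 of the other pairs, and were kept apart. The number of arrays limits the precision. The alternatives were 4 scalings, removal of the dimmest 40% of genes, averaging over a gene's probe sets, robust eBayes with a trend, array weights, averaging of NASH model 1a and 1b, omission of NASH model 2 and 7 or of any single sample, a replicate block, a clock score as a covariate and an exact permutation test of each member. The clock score is each sample's position on the first within-group component of 17 clock genes. Related granzymes and lectin receptors may cross-hybridise, so their values are less certain.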

Additional observations from a re-analysis of the deposited data

Results flagged for a closer look

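In 6 of 108 groups of 8 samples, taken over the named genes, 1 sample lay far from the other 7; chance alone flags about 1 in 20 such groups. None of the 9 T cell and cytotoxic lymphocyte genes was among them. Control 10 was low for 2 genes that follow Cd4, with Snx8 at 3.57 against 4.54 to 5.24 in the other controls and Sec11a at 7.70 against 8.14 to 8.48. These 2 genes were named for their likeness to Cd4, which was itself lowest in control 10 among controls. Their low values there were thus partly fixed beforehand, and the rate of 1 in 20 does not hold for genes chosen in this way. Control 4 was high for Irf8, at 4.83 against 3.97 to 4.29 in the other controls, and for S100a8, at 4.30 against 1.58 to 2.81. The Kupffer cell gene Timd4 was low in control 5, at 3.52 against 4.60 to 5.50. Zcrb1 was low in control 9, at 6.79 against 6.99 to 7.09.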

How the results depend on the processing

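Cd4 was lower and Cd8a higher, and both were called, under every alternative that tested them; the filter on the dimmest 40% of genes left Cd8a out and kept 5 of the 9 genes. With single samples left out, 3 to 5 of the 9 genes were higher, 1 was lower, and 4760 to 5122 of all genes were called. The labels' replicate numbers are shared by 7 NASH model samples and their controls, but the deviations of same-numbered samples correlated at -0.03 to 0.06. Of the 7, 1 correlated best with its own number, so no pairing by number was seen, which does not show that none exists. In a block by number, NASH model 2 and control 9 and 10 had no partner and did not bear on the difference. With the number as a replicate block 2 of the 9 genes were higher, as Cd3e (adjusted p = 0.078) and Cd8b1 (0.051) did not pass, and 3924 genes were called in all; Cd5l, Folr2 and Il15ra were not called either. With the clock score as a covariate 2 of the 9 were higher and 2777 genes were called in all. Cd3e (0.29 ± 0.25, limma, adjusted p = 0.52) and Nkg7 (0.33 ± 0.14, 0.13) did not pass there, and granule genes dropped to 2 higher. The score itself ran from -2.38 to -1.06 in NASH model samples. Control 5 lay below that range at -2.54, and all other controls lay above it, at -0.59 to 3.62. The score thus went largely with the group, and this fit separates the 2 poorly. For Nkg7 the standard error rose from 0.09 to 0.14 while the difference stayed near its main value of 0.36. Gzmb changed sign, at -0.071 with arrays centred on their medians, -0.035 with the block and -0.14 with the clock score, and ran from -0.0071 (without control 10) to 0.12 with single samples left out. The cause of these changes was not tested. In the exact permutation test, without adjustment, the same 5 genes had p under 0.05. Signal over background limits the dim genes, above all Gzmb, Prf1 and Ifng.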
